A study of Nasturtium officinale with 24 samples.

Results

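The transcripts described here are 150 contigs of watercress, Nasturtium officinale, a crucifer of streams and wet ground, that stood several-fold higher under water than in air in both petioles and stems and after both 1 and 2 days. They were chosen from 80741 contigs by their measured values. Each library's estimated counts were scaled to a library sum of 1000000 (CPM), and the response R was the log2 ratio of the group means under water and in air with 1 CPM added to each. A contig was eligible when the mean of its 8 group means was at least 8 CPM and when R differed by less than 1 between the days within each tissue and between the tissues on each day. Of 16855 eligible contigs, the 150 with the highest minimum of the 4 responses are the members.

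The series compared plants about 3 weeks old that were completely under water with plants kept in air in similar tubs, and collected petioles (leaf stalks) and stems separately. Each of the 8 groups, petioles or stems in air or under water for 1 or 2 days, holds 3 libraries, and each library is a pool of 5 plants. All plants, controls included, grew at 23 °C with a light period of 8 h and a night of 16 h, and no genotype or strain is given beyond the species. Library totals lay between 17617430 and 48928331 estimated counts, so that 3 counts amounted to 0.0613 to 0.170 CPM.

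A shoot under water exchanges gases with its surroundings only slowly. The gaseous hormone ethylene collects in the tissue, oxygen can run short in the dark, and dim light lowers sugar supply. Flooded plants are known to respond with fermentation enzymes, sugar-saving metabolism and, in species that escape upwards, faster elongation of stems or petioles. Which of these processes the 150 contigs belong to is not known here, because the files give contig identifiers without gene names. Members are therefore described by identifier and by their values, with no function assigned, and contigs of 1 gene are not merged. Tissue and cell type labels could not be checked against marker genes for the same reason.

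The values that chose the members are given first, as a description without a test. At 1 day the median R of the members was 2.67 for petioles and 2.51 for stems, and at 2 days 2.56 and 2.34. Over the eligible contigs the median R was 0.04, -0.09, 0.07 and 0.06 in the same order. As a fold of CPM + 1, the members' medians lay between 5.07 and 6.35. The minimum response ranged from 1.65 to 5.89, and its median was 2.13. The limit fell in a dense part of the list. GEMC01034012.1 (701 bases) and GEMC01032082.1 (1609 bases), the lowest 2 members, had minimum responses of 1.66 and 1.65, and the first 3 contigs outside all had 1.65. Without the bound on the differences, 304 contigs with a mean of at least 8 CPM reached the lowest member's minimum, so the members are the even risers among the strong risers.

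GEMC01046308.1 (1515 bases) had the highest minimum response. In petioles at 1 day the libraries in air held 2.24, 1.496 and 4.31 CPM, and those under water 192, 230.4 and 278 CPM. At 2 days they held 2.07, 1.92 and 1.47 CPM in air, and 241, 311 and 369 CPM under water. Every petiole library under water thus lay far above every petiole library in air. Stems at 1 day held 1.74, 1.89 and 1.75 CPM in air against 172, 130.3 and 192 CPM under water, and at 2 days 1.96, 1.56 and 2.33 CPM against 183, 250.5 and 276 CPM. The same gap separated the stem libraries, and the 4 responses were 5.99, 6.77, 5.89 and 6.33 (petiole and stem in turn, 1 day and 2 days within each).

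GEMC01038811.1 (1336 bases) came second. Petioles under water held 78.8, 133 and 151 CPM at 1 day, then 68.8, 103 and 61.7 CPM at 2 days. Stems under water held 137, 166 and 142 CPM, then 62.5, 100.3 and 96.9 CPM. In air its 12 libraries lay between 0.98 CPM, in petioles at 1 day, and 3.50 CPM, in stems at 1 day. It was therefore low in air in all libraries, and under water lower at 2 days than at 1 day in both tissues by the group means.

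**Figure D1:**
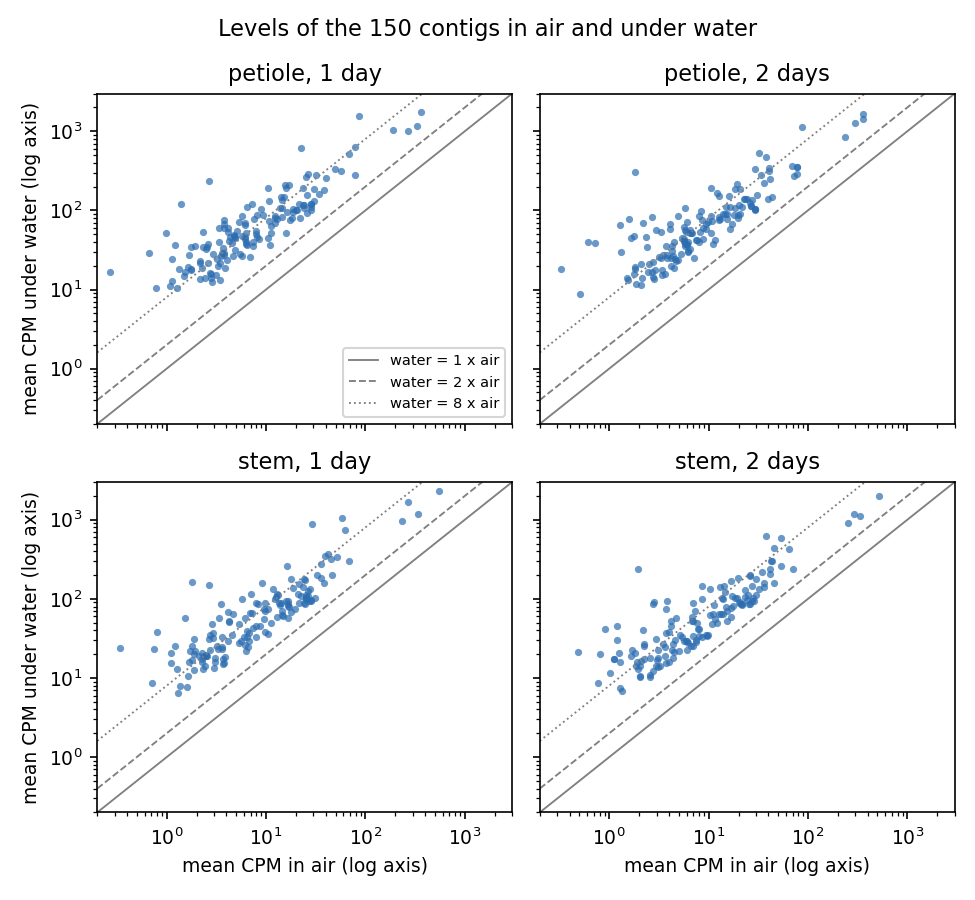
Mean CPM of each of the 150 contigs in air (x) and under water (y) in petioles and stems at 1 and 2 days, on log axes, with lines for equal level, 2-fold and 8-fold. All points lie above the 2-fold line, as the choice of the members requires, and the contigs span levels in air from under 1 CPM to 544 CPM.

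The members were not silent in air as a rule. The highest of the 4 air group means was under 1 CPM for 1 member, 1 to 10 CPM for 77 members and over 10 CPM for 72 members. The mean over the air groups had a median of 7.61 CPM, and the mean over the groups under water a median of 59.8 CPM. The eligible contigs had medians of 20.1 CPM in air and 20.7 CPM under water. Strong responses were found at low and at high levels in air. Among the 25 members ranked highest, 17 lay in the class from 1 to 10 CPM and 7 in the class over 10 CPM.

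The abundant members carried most of the counts. Under water 13 of the 150 members held at least 50% of the summed CPM, and 46 members had a mean of over 100 CPM, against 4 members in air. GEMC01033391.1 (1086 bases) was the most abundant. Petioles at 1 day held 335, 398 and 363 CPM in air against 1283, 1871 and 2119 CPM under water, and at 2 days 343, 410.1 and 315 CPM against 1572, 1554 and 1788 CPM. Stems at 1 day held 414, 571 and 647 CPM in air against 2595, 2028 and 2317 CPM under water, and at 2 days 509.9, 481 and 563 CPM against 1957, 1946 and 2145 CPM. The libraries in air and under water did not overlap in either tissue on either day.

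GEMC01033529.1 (792 bases) was second in CPM, with group means of 328 to 360 CPM in air and 1113 to 1424 CPM under water. Levels were also taken per length, as the deposited TPM (levels per base of contig, scaled to the same sum in each library). By mean TPM over the 12 libraries under water, GEMC01033391.1 was again the highest of the members, at 1628 TPM. Its mean over the 12 libraries in air was 371 TPM. GEMC01033529.1 was the third under water, at 1520 TPM, and in air, at 418 TPM, it stood above GEMC01033391.1. The median member stood at 48.2 TPM under water and 6.92 TPM in air.

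**Figure D2:**
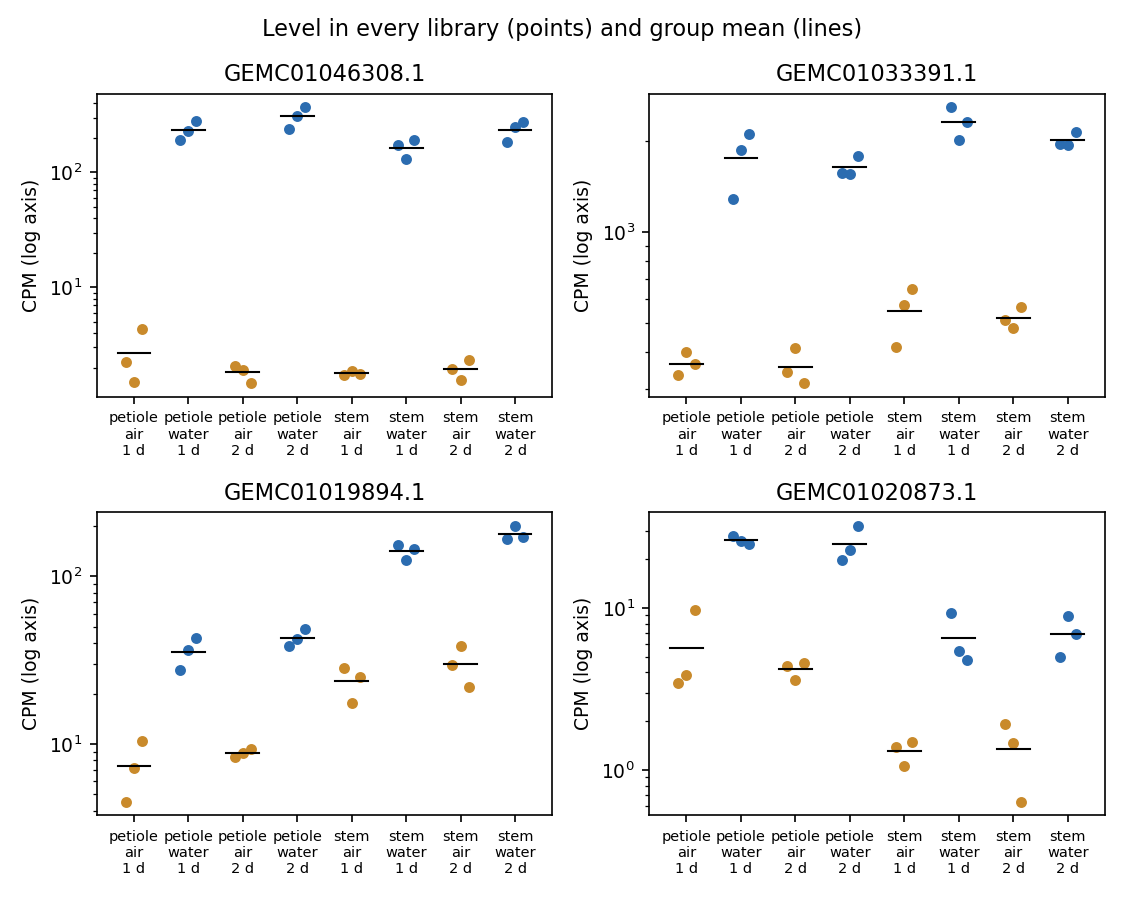
CPM (log axis) of 4 members in all 24 libraries (points, 3 per group) with group means (lines), for petioles and stems in air and under water at 1 and 2 days. In each tissue on each day the points under water lie above those in air, and GEMC01019894.1 is higher and GEMC01020873.1 lower in stems than in petioles in both conditions.

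Together the 150 contigs took a small share of the estimated counts in air and a several-fold larger share under water. Their summed CPM in petioles was 2918 ± 526 in air against 19107 ± 4129 under water at 1 day (SD, n = 3), and 3242 ± 231 against 19269 ± 1569 at 2 days. In stems it was 3216 ± 424 against 19649 ± 1486 at 1 day, and 3282 ± 127 against 17209 ± 299 at 2 days. The share under water was thus 1.72% to 1.96% of a library, against 0.292% to 0.328% in air. The ratio of water to air was 6.55 ± 1.84 and 5.94 ± 0.644 in petioles at 1 and 2 days and 6.11 ± 0.929 and 5.24 ± 0.223 in stems (SD propagated from both groups of 3). These sums rest on the contrasts that chose the members. In whole petioles and stems, more cells of a type and more RNA of the members per cell cannot be told apart.

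Some libraries stood apart from the others of their group for the members. Replicate 1 of petioles under water at 1 day had a summed CPM of 14523, against 20262 and 22535 in the other libraries of its group. It was the lowest of its group for 130 of the 150 members, and for 36.0% of the eligible contigs. Replicate 3 of the same group was the highest for 111 members, and for 28.9% of the eligible contigs. Replicate 1 still lay well above the air libraries of the same day, which had sums of 2463, 2797 and 3494 CPM. Without replicate 1 the ratio of water to air in petioles at 1 day was 7.33, and 136 of the 150 members were chosen again. In petioles in air at 1 day, replicate 3 was the highest of its group for 109 members, against 41.2% of the eligible contigs. Leaving out that library kept 128 members, the lowest number for any of the 24 libraries.

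**Figure D3:**
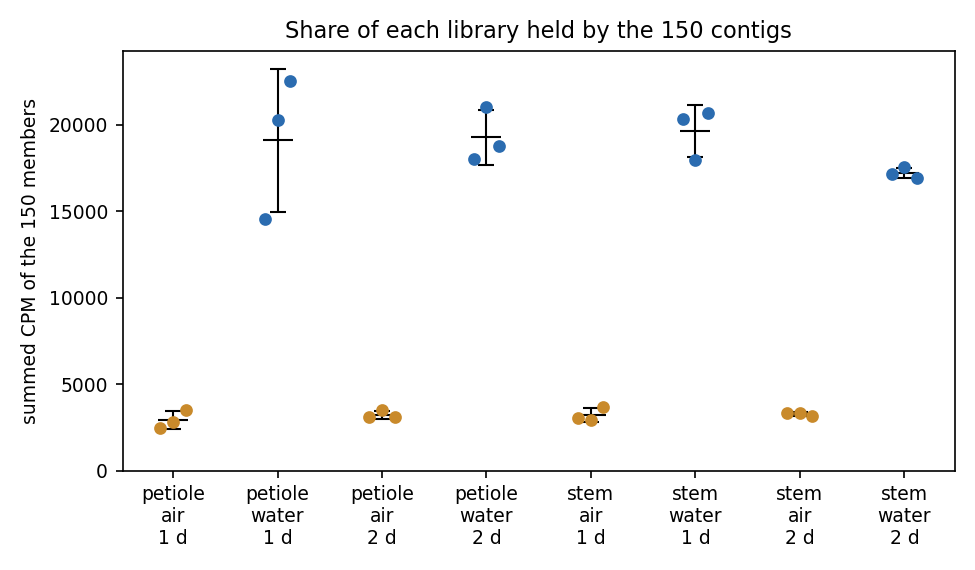
Summed CPM of the 150 contigs in each library (points), with mean and SD (black, n = 3), by tissue, treatment and day. The 12 libraries in air lie between 2463 and 3700 CPM and the 12 under water between 14523 and 22535 CPM, and the lowest point under water is replicate 1 of petioles at 1 day.

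The spread between replicates was larger for members than for other contigs of the same minimum level. The median coefficient of variation of a member's CPM within a group was 13.7% to 21.7% in the 4 groups under water, and 9.64% to 14.7% for the eligible contigs in the same groups. In air it was 20.1% to 33.4% for the members and 11.6% to 17.3% for the eligible contigs. In air the members also had the lower levels, while under water they had the higher levels. Even so, in each tissue on each day the lowest library under water lay above the highest library in air for all 150 members. Over all 53919 contigs tested, 7.45% showed this separation in all 4 tissue-day groups, and since the members were chosen on this contrast, nothing is read from their count. For 147 members, every library under water, of either tissue and day, lay above every library in air.

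In the fit across all contigs (edgeR's quasi-likelihood test, Benjamini-Hochberg adjusted p under 0.05), all 150 members were called higher under water in petioles at 1 day and at 2 days and in stems at 1 day and at 2 days. Of all contigs tested, 13.5%, 16.3%, 9.99% and 10.4% were called higher in these comparisons, in the same order. The members were chosen on these contrasts, and their calls support nothing further. The rule bounded R with 1 CPM added, and the fitted log2 changes, which add far less, were less even. For 27 members the fitted change differed by at least 1 between the tissues on a day or between the days in a tissue. The widest gap was that of GEMC01002547.1 (237 bases), which is low in petioles in air and whose fitted change in stems minus that in petioles was -2.18 on both days.

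The rule set no bound on the difference in level between the tissues, and many members were not equally abundant in both. The levels in air and under water do enter the responses that the rule ranked and bounded. How far this shaped the balance between the tissues was not tested. In air, averaged over the days, 39 of the 150 members (26%) were lower and 18 (12%) higher in stems than in petioles (edgeR, adjusted p under 0.05). Of all contigs tested 9.69% were lower and 10% higher, and of the eligible contigs 16.7% and 16.6%. The median log2 difference of the members was -0.20, beside 0.07 over all contigs. This balance depended on scaling. With library totals alone in place of TMM factors (trimmed mean of M-values, a scaling to the bulk of the contigs), 30 members were lower and 35 higher, 53.8% higher among the calls against 31.6%, and the median of all contigs moved to 0.26. Relative to that median, the members' median was -0.27 with TMM and -0.26 with library totals.

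GEMC01002547.1 had the largest difference towards stems in air. Its petiole libraries held 0.23, 0.26 and 0.31 CPM on the first day and 0.34, 0.53 and 0.11 CPM on the second, the last below 3 counts. Its stem libraries held 2.19, 1.69 and 4.85 CPM, then 3.94, 5.40 and 3.14 CPM. All 6 stem libraries lay above all 6 petiole libraries, with a log2 difference of 3.30 ± 0.34 (SE; edgeR, adjusted p = 7.2e-07).

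GEMC01022132.1 (1479 bases) was next. At 1 day petioles held 2.91, 1.54 and 4.25 CPM against 16.0, 15.03 and 13.7 CPM in stems, and at 2 days 3.76, 5.11 and 8.00 CPM against 13.9, 17.7 and 14.6 CPM. The tissues did not overlap, with a log2 difference of 1.74 ± 0.25 (SE; edgeR, adjusted p = 4.7e-05).

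In the other direction, GEMC01031203.1 (1941 bases) held 1.90, 1.601 and 2.94 CPM in petioles in air at 1 day against 1.19, 0.43 and 0.54 CPM in stems, and at 2 days 5.70, 4.29 and 4.23 CPM against 1.39, 1.23 and 0.41 CPM. All stem libraries were below all petiole libraries (log2 difference -2.14 ± 0.28, SE; edgeR, adjusted p = 1.6e-05). GEMC01020873.1 (297 bases) held 3.46, 3.84 and 9.79 CPM in petioles at 1 day against 1.39, 1.05 and 1.49 CPM in stems, and at 2 days 4.39, 3.598 and 4.60 CPM against 1.92, 1.46 and 0.64 CPM. Its stem libraries too were all below its petiole libraries (log2 difference -2.08 ± 0.28, SE; edgeR, adjusted p = 1.6e-05). Without replicate 1 of stems in air at 1 day, the number of members higher in stems was 11.

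Under water, too, more members were lower than higher in stems. Averaged over the days, 49 members (32.7%) were lower and 13 (8.67%) higher in stems than in petioles (edgeR, adjusted p under 0.05). Of all contigs tested 13.9% were lower and 13.6% higher, and of the eligible contigs 20.6% and 22.9%. The median log2 difference of the members was -0.29, beside -0.01 over all contigs. At 1 day 14 members (9.33%) were lower and 5 (3.33%) higher in stems, beside 6.34% and 4.56% of all contigs tested. At 2 days 36 members (24%) were lower and 6 (4%) higher, beside 9.43% and 9.3%. Relative to the median of all contigs, the members' median was -0.12 at 1 day and -0.44 at 2 days under water. In air it was -0.22 and -0.29. Averaged over the days under water it was -0.29. That average was -0.39 without replicate 1 of petioles under water at 1 day and -0.20 without replicate 3 of that group. Whether the tissue difference changed between the days was not tested. The rule bounded how far a tissue difference could move between air and water, and the conditions were not tested against each other.

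GEMC01019894.1 (1130 bases) had the largest difference towards stems under water. At 1 day petioles held 27.5, 36.4 and 42.8 CPM against 155, 125 and 145 CPM in stems, and at 2 days 38.5, 42.2 and 48.8 CPM against 167, 201 and 171 CPM. Its lowest stem library lay above its highest petiole library by a wide margin, with a log2 difference of 1.91 ± 0.17 (SE; edgeR, adjusted p = 1.5e-07). It was higher in stems in air as well, with 7.37 ± 2.95 against 23.7 ± 5.51 CPM at 1 day and 8.84 ± 0.532 against 30.1 ± 8.34 CPM at 2 days (SD, n = 3; log2 difference 1.51 ± 0.17, SE; edgeR, adjusted p = 2.8e-06).

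GEMC01002547.1 was second under water, with 12.7, 17.3 and 20.5 CPM in petioles at 1 day against 45.0, 33.6 and 31.3 CPM in stems, and at 2 days 15.1, 14.5 and 24.5 CPM against 47.5, 48.7 and 40.1 CPM. The tissues did not overlap, and its log2 difference of 1.12 ± 0.24 (SE; edgeR, adjusted p = 0.0014) was smaller than that in air. The difference between these values was not tested, since the rule used it.

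GEMC01020873.1 was lowest in stems relative to petioles under water too. Petioles at 1 day held 27.7, 26.1 and 24.8 CPM against 9.30, 5.45 and 4.77 CPM in stems, and at 2 days 19.7, 22.8 and 32.2 CPM against 4.99, 8.89 and 6.90 CPM (log2 difference -2.03 ± 0.26, SE; edgeR, adjusted p = 8.7e-06). GEMC01039031.1 (1479 bases) held 22.3, 37.1 and 46.1 CPM in petioles at 1 day against 11.8, 12.9 and 14.7 CPM in stems, and at 2 days 24.8, 35.5 and 17.5 CPM against 8.34, 7.58 and 6.52 CPM (log2 difference -1.74 ± 0.27, SE; edgeR, adjusted p = 8.7e-05). For both contigs all stem libraries lay below all petiole libraries under water.

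Members called in both conditions kept their direction. In air and under water alike 28 members were lower and 11 higher in stems, and no member was called in opposite directions. A further 21 members were called lower and 2 higher under water alone, 11 lower and 7 higher in air alone, and 70 were called in neither. Because the rule limits how far the responses of the tissues differ, nothing is read from this count.

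**Figure D4:**
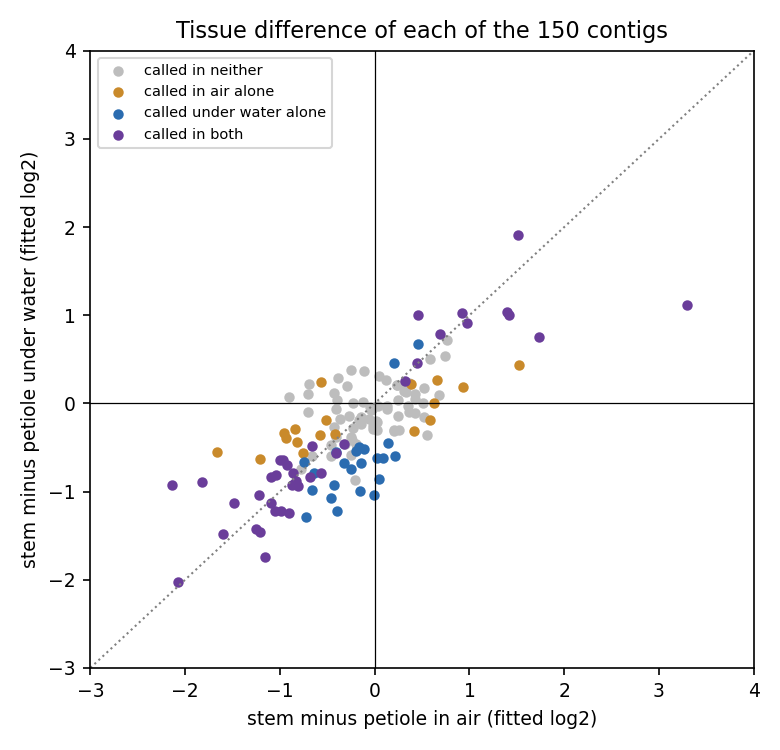
Fitted log2 difference between stem and petiole in air (x) and under water (y) for each of the 150 contigs, averaged over the days, coloured by the calls (edgeR, adjusted p under 0.05), with a dotted line of equal difference. The 39 contigs called in both conditions lie in the lower left (28) and the upper right (11), and the point farthest to the right is GEMC01002547.1, at 3.30 in air and 1.12 under water.

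Between the first and the second day under water few members were called different. Averaged over the tissues, 5 members (3.33%) were called higher and 11 (7.33%) lower at 2 days than at 1 day (edgeR, adjusted p under 0.05), and 134 were not called. Of all contigs tested 3.57% were higher and 3.59% lower, and of the eligible contigs 4.76% and 6.54%, so the members' shares are near the background of eligible contigs. The rule kept the responses of the days within 1 of each other, which bounds the change under water where the level in air is steady, so nothing is read from the number not called. DESeq2 called 8 higher and 18 lower, and limma-voom 11 and 18. The shares of all contigs called by these methods are not given here, so nothing is read from their counts. The median log2 difference of the members was -0.15. In petioles it was close to 0, with 75 members above and 75 below 0. In stems it was -0.28, and 109 of the 150 lay below 0. Over all contigs it was -0.02 in petioles and -0.005 in stems. Averaged over the tissues, the members' median was -0.23 without replicate 1 of petioles under water at 1 day. It was -0.06 without replicate 3 of that group. The tissues were not tested against each other. All 11 members called lower and all 5 called higher had the same sign in both tissues. The calls were made on the mean of the tissues, so nothing is read from this agreement. A member called higher stood at 1.35 in petioles and at only 0.03 in stems. With library totals alone 7 were higher and 9 lower, 43.8% higher among the calls against 31.3%.

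GEMC01040259.1 (1187 bases) rose most between the days under water. Petioles held 129, 103 and 127 CPM at 1 day against 338, 392 and 207 CPM at 2 days, and stems 168, 86.4 and 84.9 CPM against 384, 293 and 224 CPM. The days did not overlap in either tissue (log2 difference 1.32 ± 0.38, SE; edgeR, adjusted p = 0.042). In air it varied between replicates, at 1 day from 8.06 to 45.0 CPM for petioles and from 6.98 to 42.4 CPM for stems. GEMC01046437.1 (1334 bases) held 143, 202 and 222 CPM in petioles at 1 day against 339, 472 and 227 CPM at 2 days, and in stems 115, 88.8 and 98.4 CPM against 204, 226 and 160.0 CPM (log2 difference 0.84 ± 0.25, SE; edgeR, adjusted p = 0.048). Leaving out 1 library ended the first of these calls in 13 of 24 fits and the second in 16, while the log2 differences stayed between 1.20 and 1.53 and between 0.67 and 0.96.

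GEMC01053431.1 (1398 bases) fell most between the days. Petioles held 112, 157 and 170.2 CPM at 1 day against 78.8, 85.4 and 65.2 CPM at 2 days, and stems 90.1, 124 and 103 CPM against 61.1, 76.7 and 53.3 CPM (log2 difference -0.91 ± 0.22, SE; edgeR, adjusted p = 0.018). GEMC01006019.1 (353 bases) held 25.3, 39.9 and 38.5 CPM against 18.4, 22.4 and 21.6 CPM in petioles, and in stems 49.97, 64.4 and 88.7 CPM against 35.7, 45.3 and 31.9 CPM (log2 difference -0.87 ± 0.18, SE; edgeR, adjusted p = 0.0076). For both contigs the libraries of the 2 days did not overlap within a tissue, and both calls held with any 1 library left out.

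The number of members called between the days rested on single libraries. The count higher at 2 days was 1 without replicate 2 of petioles under water at 1 day, replicate 1 or 2 of petioles under water at 2 days, replicate 2 or 3 of stems under water at 1 day, or replicate 2 of stems under water at 2 days. It was 2 without replicate 1 of petioles under water at 1 day, replicate 3 of stems in air at 2 days, or replicate 1 or 3 of stems under water at 2 days. It was 3 without replicate 2 of petioles in air at 1 day, replicate 1 of petioles in air at 2 days, or replicate 3 of stems in air at 1 day. The count lower at 2 days was 19 without replicate 1 of petioles under water at 1 day, the library with the low member sum. It was 5 without replicate 1 of petioles or of stems under water at 2 days, 6 without replicate 2 of petioles under water at 1 day, replicate 3 of stems under water at 1 day or replicate 2 of stems under water at 2 days, and 7 without replicate 2 of stems under water at 1 day.

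**Figure D5:**
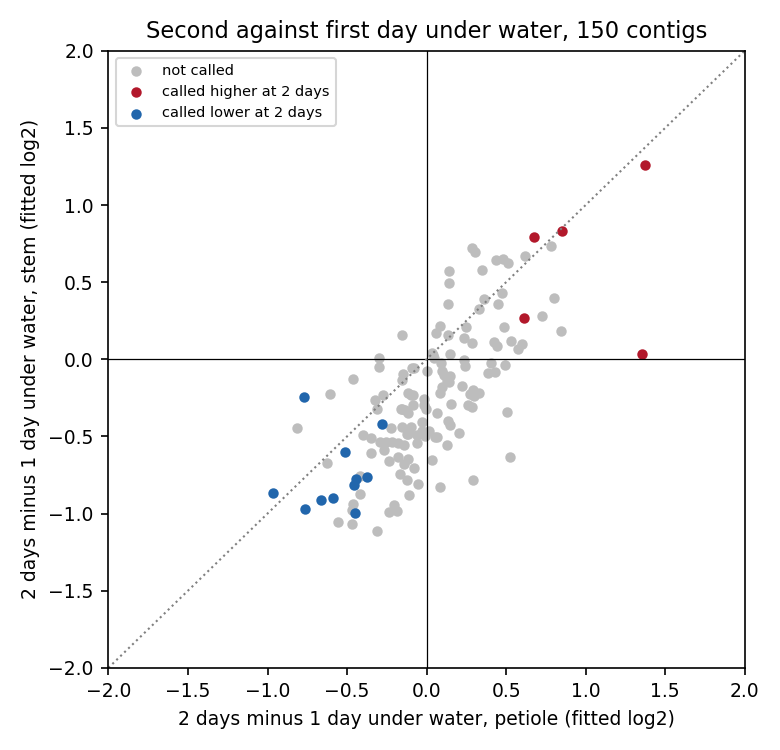
Fitted log2 difference between 2 days and 1 day under water in petioles (x) and stems (y) for each of the 150 contigs, coloured by the call on the mean of both tissues (edgeR, adjusted p under 0.05), with a dotted line of equal difference. The 5 contigs called higher lie above 0 and the 11 called lower lie below 0 on both axes, and most grey points lie below the dotted line.

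In air no member was called different between the days (edgeR, adjusted p under 0.05), and neither DESeq2 nor limma-voom called one. Of all contigs tested 0.0445% were higher and 0.00371% lower at 2 days. At an unadjusted p under 0.05, 19 members (12.7%) were higher at 2 days and 0 were lower. At that threshold 4.35% of all contigs tested were higher and 3.07% lower, and of the eligible contigs 5.33% and 2.53%. The levels in air enter the responses that the rule ranked and bounded, so nothing is read from these unadjusted counts. The median log2 difference of the members was 0.12, beside 0.00 over all contigs. With 1 library left out, the members' median lay between 0.06 and 0.22.

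By median length the members were shorter than the eligible contigs and longer than all contigs tested, without matching for level. Their median length was 1252 bases (range 237 to 4681), against 1490 bases for the eligible contigs and 1034 bases for all contigs tested. Over 2000 bases were 25 members (16.7%), against 28.4% of the eligible contigs and 17.1% of all contigs tested. Estimated counts were whole in every library, within 1e-06, for 26 members (17.3%). The same held for 13.4% of the eligible contigs and for 24.2% of all contigs tested. For the other members the counting had split reads with other contigs, and their separate values are uncertain to that extent.

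Some members may not be separate transcripts. Contig identifiers are numbered, and 26 of the members formed 13 pairs with consecutive numbers. None of these 26 had whole counts in every library, while all 26 members with whole counts were among the other 124. Within a pair the largest difference of the 4 responses had a median of 0.64. Next to the members in number stood 216 tested contigs that are not members, and 69 of them (31.9%) were called higher under water in both tissues on both days (edgeR, adjusted p under 0.05 in each of the 4 comparisons). Of all contigs tested, 5.30% were. Of these 69, 5 had whole counts in every library, as did 28 of all 216. Most of these neighbours thus shared reads with some contig, whether called or not. Whether shared reads make their values move together was not tested.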

How the data were processed

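Messenger RNA from petioles and stems was sequenced as libraries that do not keep the strand, per the labels' protocols. The submitters' processing notes name kallisto, edgeR and limma, without versions. The authors deposited for each library the estimated counts, the TPM and, in bases, the length and effective length of 80741 contigs. Estimated counts were rounded for the tests, and CPM was computed from the deposited values. edgeR 4.0.16 (filterByExpr with a minimum count of 10 and total of 15, TMM, glmQLFit, glmQLFTest) fitted 8 group means to 24 libraries and 53919 contigs. Tests were two-sided with Benjamini-Hochberg adjustment over all tested contigs, and a p under 0.05 was a call. SE was derived from F. limma 3.58.1 and DESeq2 1.42.0 were alternatives. The fit was tested on simulated data.

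The members and tests were chosen with earlier results of these data known. Contigs were named by rule, at most 2 per comparison and direction: the highest minimum response, the lowest rank, the highest mean CPM, and the largest called difference. The labels do not state whether pools came from separate experiments, so p-values measure the spread between pools. Gene and marker lists could not be used without gene names. Depth limits cover counting error only. No 2 replicates agreed within sampling noise.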

Additional observations from a re-analysis of the deposited data

How the results depend on the processing

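The choice of the 150 kept 128 to 147 of them when any 1 library was left out, 110 to 139 with TMM-scaled CPM, TPM, other pseudocounts or other CPM minimums, 96 with differences under 0.75, and kept 65 with no bound. The ratio of the summed CPM in stems at 2 days was 4.96 with TMM-scaled CPM and 5.80 without the 2 most abundant members, and every ratio stayed between 4.96 and 7.33 under these alternatives and with 1 library left out.

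For stem against petiole in air, the count of members higher in stems was 35 with library totals alone, 9 with only the 12 libraries compared, and 11 to 20 with 1 library left out, and the count lower was 29 to 43 with 1 library left out. Comparisons of 1 day each were chosen after seeing the data. In air they gave 6 (4%) higher and 10 (6.67%) lower at 1 day, beside 3.54% and 4.72% of all contigs tested. At 2 days they gave 8 (5.33%) higher and 19 (12.7%) lower, beside 3.84% and 5.92%. Under water they gave 5 (3.33%) higher and 14 (9.33%) lower at 1 day, beside 4.56% and 6.34%. At 2 days under water they gave 6 (4%) higher and 36 (24%) lower, beside 9.3% and 9.43%. Averaged over the days under water, 10 to 16 members were higher and 41 to 66 lower with 1 library left out. Between the days under water, DESeq2 called 8 higher and 18 lower, limma-voom 11 and 18, and the 12 libraries compared 18 lower. With no filter 3 were higher, and 9 of the members chosen on TMM-scaled CPM. The shares of all contigs called are not given for these alternatives, so nothing is read from the counts. In petioles alone 2 (1.33%) were higher and 1 (0.667%) lower at 2 days, beside 0.976% and 0.716% of all contigs tested. In stems alone 0 were higher and 3 (2%) lower, beside 0.831% and 0.786%. Averaged over the tissues, 1 to 5 were higher and 5 to 19 lower with 1 library left out. The cause of these shifts was not tested. In air between the days the count was 0 in every alternative. The 8 named differences between tissues held in each of 34 alternatives.

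Equal replicate numbers were not taken to pair the samples, since the labels do not say so and not every pair's deviations correlated over 0.1. Deviations from the group mean correlated at -0.23 to 0.36 between petiole and stem and at -0.30 to 0.41 between the days, and 11 and 17 of 24 samples correlated best with their own number. Between petiole and stem the median was 0.0425 for equal and -0.024 for different numbers, and between the days 0.102 and -0.0605. Between the days, 6 of 12 pairs of equal number correlated over 0.1, among them all 3 of petioles in air (0.23 to 0.41). These are hints from the data and not from the design. With the replicate block, 18 members were higher and 39 lower in stems in air, 12 and 50 under water, 5 and 14 between the days under water, and 0 and 0 between the days in air.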
